A study of Taeniopygia guttata with 46 samples.

Results

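Testes of adult male zebra finches (Taeniopygia guttata) exposed to heat were compared with testes of males kept at a neutral temperature. The tested birds had spent 5 h in air at 43 °C, above their thermoneutral zone, and the birds they were set against had spent 5 h at 35 °C, within it. That zone is the range of air temperatures in which a resting bird spends no extra energy on holding its body temperature. The comparison rested on 15 testis libraries, 7 at 43 °C and 8 at 35 °C, out of 46 libraries in the series. They were chosen by their labels alone. Another 7 testis libraries, of males kept at 27 °C, below the zone, entered the fit so that all 3 temperatures shared 1 estimate of the spread between birds. The series also holds 24 libraries of the posterior telencephalon. Each library came from a single bird, and the sources used here do not give the exact age, origin or breeding state of the birds.

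The testis makes sperm in the seminiferous tubules, where germ cells divide, pass through meiosis and reshape into sperm alongside the Sertoli cells that nurse them. Leydig cells between the tubules make testosterone. The testes of birds lie inside the body and work at its core temperature, and a bird in air hotter than its thermoneutral zone sheds heat by panting and may become hyperthermic. Cells under heat stress are known to make heat shock proteins, chaperones that hold and refold damaged proteins. The files name genes by Ensembl identifier only, and 0 of the 18618 identifiers could be paired with a symbol, so no gene below is given a function, the defining markers of testis cells could not be looked up, and no sequence is shown.

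The libraries held 16.3 to 22.7 M counts at 43 °C and 14.2 to 25.4 M at 35 °C. Each of the 15 correlated with the mean of the other testis libraries at r of at least 0.990 across genes, and with the mean telencephalon library at no more than 0.739. Every bird has a paired-end and a single-end column of counts, which were summed. The paired-end column held 61.3% of the counts of bird T156 at 43 °C, and 53.6% and 54.0% of those of birds T154 and T157 at 35 °C, against 40.5 to 41.5% in the other 12.

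No gene passed the test for a difference between 43 and 35 °C. Of 14149 genes tested, 0 (0%) had an adjusted p under 0.05 in edgeR's quasi-likelihood test with Benjamini-Hochberg adjustment, and the smallest adjusted p was 0.560. DESeq2 and limma voom with quality weights also called 0 genes. At an unadjusted p under 0.05 DESeq2 had 1370 of the 17508 genes it tested (7.82%), and limma voom 1503 of 14149 (10.6%). In edgeR that looser limit took in 1123 genes (7.94%), where 5% are expected on average without any effect. Genes vary together within a bird, so the share can stray from 5% without any effect. With 2 surrogate variables it was 5.08%. Of the 1123 genes, 529 (3.74% of genes tested) were higher at 43 °C and 594 (4.2%) were lower. This order turned with 2 surrogate variables (409 higher, 310 lower) and with 3 (458 higher, 355 lower). It also turned without T137 (621 and 583), T152 (587 and 565) or T141 (442 and 438), and was even without T135 (508 and 508). The 1123 genes are described below as a group. They were selected by p in this same contrast, so their size and direction are a description, and no single one of them is a call. A testis library is a mixture of cell types, in which fewer cells of a type and less RNA per cell cannot be told apart.

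The changes were small. Over all genes tested, the log2 fold change was -0.15 at the 25th and 0.13 at the 75th percentile, and -0.54 at the 5th and 0.39 at the 95th, so the tail of lower genes was the longer one. A 1.5-fold difference was reached by 283 genes that were higher at 43 °C and by 578 that were lower. At 2-fold there were 60 higher and 92 lower genes. Within the 1123, the median difference was 1.28-fold for the higher genes and 1.48-fold for the lower genes. The higher genes had a median level of 32.0 CPM (counts scaled to a common library size with TMM), the lower ones 7.47 CPM, and all genes tested 17.1 CPM. Among genes of similar level the 2 median differences were closer. They were 1.56-fold (higher) and 1.56-fold (lower) at 1 to 10 CPM, and 1.26-fold and 1.36-fold at 10 to 100 CPM.

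Direction went with the level of the gene. Among the 4489 genes with a mean of 1 to 10 CPM, 44.3% were higher at 43 °C, and the median log2 fold change was -0.05. Among the 2185 genes at 100 to 1000 CPM, 61.7% were higher, with a median of 0.04. Genes of low level thus leaned to lower values in the heated birds and genes of high level to higher values, by small amounts. The lean was steeper among genes at an unadjusted p under 0.05. A small shift of all fold changes makes the counts in the tails more lopsided by construction, so this adds no separate support. At 1 to 10 CPM, 124 of these (2.76% of the genes of that level) were higher and 278 (6.19%) were lower. At 100 to 1000 CPM, 121 (5.54%) were higher and 36 (1.65%) were lower. The 6184 genes between these levels, at 10 to 100 CPM, were nearly balanced, with 261 higher and 220 lower. All 1206 genes under 1 CPM together gave 20 higher and 58 lower, and the 85 genes at 1000 CPM or more gave 3 and 2.

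**Figure D1:**
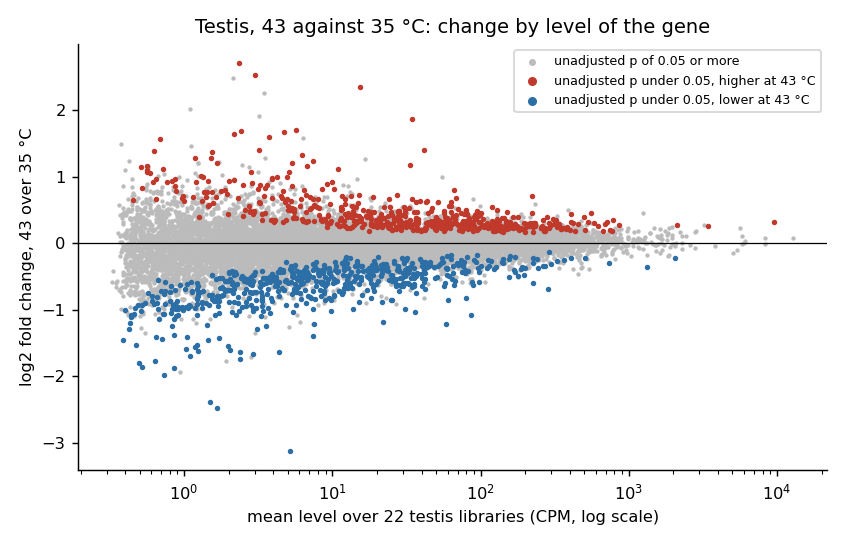
Log2 fold change of 43 over 35 °C (y axis) against the mean level over 22 testis libraries (x axis, CPM, log scale) for 14149 genes, 1 point each. Red and blue points have an unadjusted p under 0.05 and are higher (529) or lower (594) at 43 °C, and large changes are seen at low levels.

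**Figure D2:**
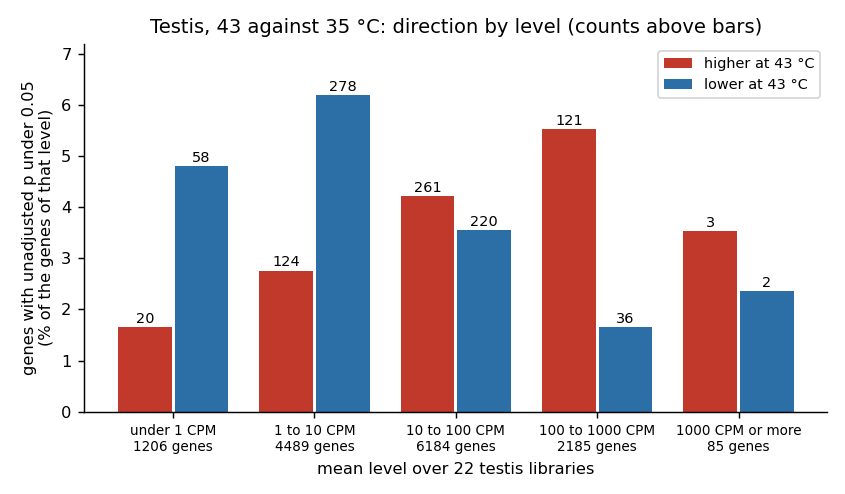
Share of genes with an unadjusted p under 0.05 (y axis, % of the genes of that level) that were higher (red) or lower (blue) at 43 °C, in 5 groups by mean level (x axis, CPM), with counts above the bars. Lower genes outnumber higher genes below 10 CPM and the order turns at 10 CPM and above.

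Genes are not independent replicates, so this lean was also measured once per bird. For each bird the median deviation from the mean testis at 27 °C was taken over genes of 100 CPM or more, and that over genes of 1 to 10 CPM was subtracted. The values at 43 °C ran from -0.07 to 0.27 with a median of 0.07, on the log2 scale, and those at 35 °C from -0.12 to 0.11 with a median of -0.003. The ranges overlapped widely. The high value of bird T141 stood at the top of the 43 °C group, while T136 and T144 lay below 0. The means were 0.07 ± 0.12 at 43 °C (SD, n = 7) and -0.01 ± 0.07 at 35 °C (SD, n = 8), and an exact two-sided permutation test gave p = 0.148 (adjusted p = 0.608 over the 5 per-bird values tested). Measured over birds, the lean did not exceed the spread within the groups. Across genes it kept its direction in every setting tried, but these settings reuse the same birds and add nothing to the test over birds. The share of genes that were higher stayed between 41.3 and 45.7% at 1 to 10 CPM and between 56.4 and 65.7% at 100 CPM or more when any 1 of the 15 birds was left out. With all 15 birds and other normalizations, tests, filters, covariates or either column alone, the ranges were 42.0 to 45.0% and 55.1 to 64.8%.

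Precision set what could be seen at each level. At 1 to 10 CPM the median 95% interval reached 0.52 log2 units to either side, and it lay within a 1.5-fold change in either direction for 29.7% of genes. At 10 to 100 CPM the median reached 0.30 log2 units and 76.7% of intervals lay within 1.5-fold. At 100 to 1000 CPM it reached 0.24 log2 units and 90.6% did. Intervals within a 2-fold change were found for 72.1%, 95.7% and 99.3% of genes at these 3 levels, and for 33.4% under 1 CPM. Changes of 2-fold or more were thus outside the unadjusted interval of nearly every gene of 10 CPM or more, while the intervals of most genes under 1 CPM were too wide at this depth to exclude them. Over all genes, the spread between birds was similar in both groups, with a median SD of 0.31 log2 units at 43 °C and 0.31 at 35 °C. The SD at 43 °C was the larger one in 51.1% of genes, and in 68.2% of the 85 genes at 1000 CPM or more. Whole-library values were less alike in spread, in both directions. The SD of the share of testis-enriched genes, defined below, was 2.02 percentage points at 43 °C and 1.09 at 35 °C. That of total counts was 2.20 M and 4.33 M. Differences in spread were not tested.

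Of the genes with large differences, few were well expressed. Of the 60 genes at least 2-fold higher at 43 °C, 7 had a mean of 10 CPM or more and 33 had an unadjusted p under 0.05. Of the 92 at least 2-fold lower, 4 reached 10 CPM and 62 had an unadjusted p under 0.05. For 18 of the 60 higher genes (30.0%) the difference between group medians was under 0.5 log2 units or opposite to the fold change, against 12 of the 92 lower genes (13.04%). Bird T156 held the highest value of the 43 °C group in 23 of the 60 higher genes, more than any other bird. Without it 42 of the 60 were still 2-fold higher, the fewest for any bird left out (42 to 56). It is also 1 of the 3 birds with an unusual share of paired-end counts. Among the 92 lower genes the highest values at 35 °C fell on T146 in 23, T157, another of those 3 birds, in 19 and T158 in 17. How often each bird is the highest over all genes is not given here, so these counts are a description. The part of the paired-end shares in these counts was not tested.

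Genes past 4-fold are a part of the genes past 2-fold, so they add no separate support. At least 4-fold higher were 6 genes, at 1.09 to 15.3 CPM, and T156 was the highest bird of the 43 °C group in 5 of them. In these 6 genes the highest bird held 35.8 to 83.4% of the group's summed CPM, with a median of 78.3%. At least 4-fold lower were 3 genes, at 1.49 to 5.15 CPM, in which the highest bird at 35 °C held 29.5 to 33.3% of its group's sum. The adjusted p of these 9 genes in edgeR was at least 0.560.

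The smallest p of the higher genes belonged to ENSTGUG00000014693. Its lowest, median and highest levels were 45.7, 53.6 and 65.2 CPM at 43 °C, against 24.4, 34.8 and 55.97 CPM at 35 °C. All 7 heated birds lay above every bird at 35 °C but T139, which had the 55.97 CPM. The mean was 55.7 ± 7.96 CPM (SD, n = 7) in the heated birds, against 36.2 ± 9.16 CPM (SD, n = 8) at 35 °C. The 1.54-fold difference, 0.62 ± 0.14 (SE) in log2, had an adjusted p of 0.560 in edgeR. At 27 °C its mean was 38.01 ± 6.41 CPM (SD, n = 7).

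ENSTGUG00000004795 split the heated birds. Its lowest, median and highest levels were 39.6, 75.4 and 79.2 CPM at 43 °C, against 36.5, 42.3 and 51.3 CPM at 35 °C. Within the 43 °C group, 5 birds lay between 74.9 and 79.2 CPM, above all birds at 35 °C, while T136 at 46.8 CPM and T152 at 39.6 CPM lay inside the range of the 35 °C birds. The mean was 66.97 ± 16.4 CPM (SD, n = 7) in the heated birds, against 43.3 ± 4.45 CPM (SD, n = 8) at 35 °C. The 1.55-fold difference, 0.63 ± 0.14 (SE) in log2, had an adjusted p of 0.560 in edgeR. At 27 °C the mean was 46.03 ± 9.27 CPM (SD, n = 7).

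ENSTGUG00000009534 had the smallest p of the lower genes. Its levels were 19.9, 25.9 and 29.4 CPM (lowest, median, highest) at 43 °C, against 28.4, 33.3 and 44.2 CPM at 35 °C. Only T136, the highest heated bird, overlapped the birds at 35 °C, of which T139 and T157 lay below it. Heated birds had 70.9% of the level at 35 °C, a log2 fold change of -0.50 ± 0.12 (SE), and an adjusted p of 0.560 in edgeR. At 27 °C its mean was 31.8 ± 3.66 CPM (SD, n = 7).

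ENSTGUG00000013293 showed the widest fold change of the 4 genes given by identifier. Its levels were 9.30, 11.6 and 18.2 CPM (lowest, median, highest) at 43 °C, against 12.9, 18.6 and 38.05 CPM at 35 °C. The groups overlapped through T144, the highest heated bird, which lay above T139, T147 and T157 at 35 °C, and T146 alone reached the 38.05 CPM. Heated birds had 56.7% of the level at 35 °C, a log2 fold change of -0.82 ± 0.20 (SE), and an adjusted p of 0.560 in edgeR. At 27 °C its mean was 21.2 ± 4.64 CPM (SD, n = 7). Log2 fold changes from the paired-end and single-end columns were 0.63 and 0.60 for ENSTGUG00000014693 and 0.65 and 0.59 for ENSTGUG00000004795. They were -0.50 and -0.52 for ENSTGUG00000009534 and -0.86 and -0.81 for ENSTGUG00000013293. The 4 genes were selected on the sum of these 2 columns of the same birds, so the shared direction adds no support.

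**Figure D3:**
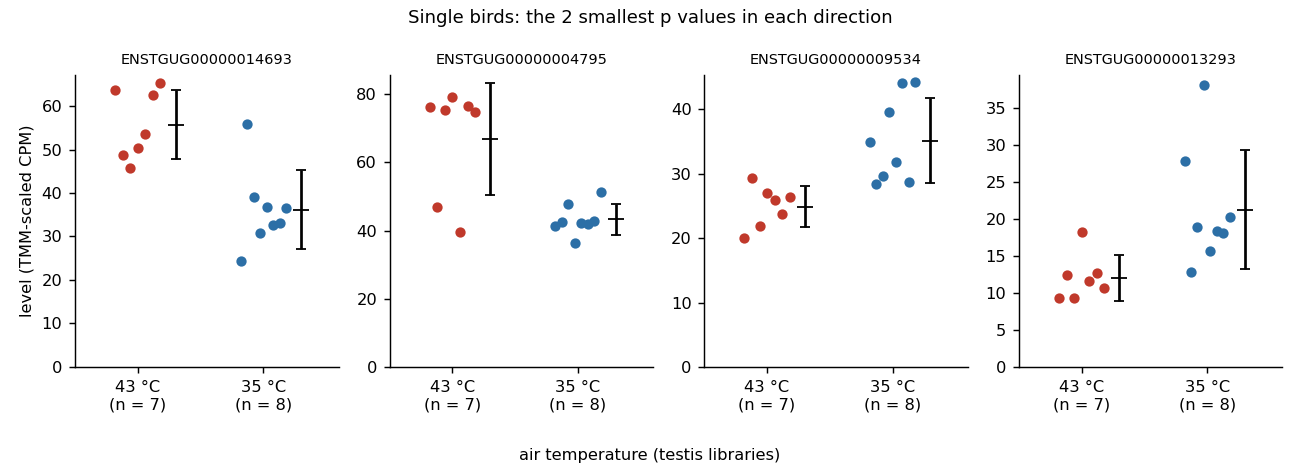
Levels in single birds (points, TMM-scaled CPM, y axis from 0) at 43 °C (red, n = 7) and 35 °C (blue, n = 8) of the 4 genes given by identifier, with mean and SD in black. The groups overlap in each gene, and ENSTGUG00000004795 parts 5 heated birds at 74.9 to 79.2 CPM from T136 and T152.

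Few genes separated the birds completely, and the number to expect without any effect was not computed. In 10 genes (0.0707% of those tested) all 7 birds at 43 °C lay on one side of all 8 birds at 35 °C, above them in 3 (0.0212%) and below them in 7 (0.0495%). The 3 higher genes had log2 fold changes of 0.33 to 0.92, and the 7 lower ones of -0.22 to -1.06. The edgeR adjusted p of these 10 genes was 0.560 to 0.566, and their levels ran from 0.727 to 148.2 CPM. Against the median at 35 °C alone, a looser measure, more genes had all heated birds on one side. Of the 529 higher genes, 222 had all 7 heated birds above the median at 35 °C, 245 had 6 of 7 and 54 had 5 of 7. Of the 594 lower genes, 319 had all 7 below that median, 237 had 6 and 34 had 5. Over all genes tested, 8.59% had 7 of 7 birds on the side of the fold change and 21.8% had 6, but the 1123 were selected on the same values.

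To measure agreement on birds that took no part in choosing the genes, each of the 56 pairs of 1 bird at 43 °C and 1 at 35 °C was held out in turn. Genes with an unadjusted p under 0.05 were chosen, with their directions, from the remaining 13 birds by limma on log2 CPM, which gave 877 to 1844 genes. The difference within the held-out pair had the same direction for 60.5% of these genes on average (SD 10.7 over pairs), where 50% is expected without any effect. The share ran from 34.9 to 77.0% and exceeded 50% in 46 of the 56 pairs. Over all genes, without a limit on p, it averaged 54.3%. Pairs share birds, and genes vary together within a bird, so the spread over pairs gives no test. The share was 56.8% for genes chosen as higher in the remaining heated birds and 63.5% for genes chosen as lower. The median difference in the direction of the fit, taken within each held-out pair, averaged 0.14 log2 units over pairs and ran from -0.19 to 0.42. The median size among the chosen genes, in the fit that chose them, averaged 0.48.

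The heated birds were uneven in this agreement. Held out in turn, T141, T153 and T144 averaged 68.9, 68.2 and 66.6% over their 8 pairs, and exceeded 50% in all 8. T135 averaged 61.8% and T152 60.4%. T156 averaged 51.7% and exceeded 50% in 4 of 8 pairs, and T136 averaged 46.2% and did so in 3 of 8. The 4 genes given by identifier did not set T136 apart in one way. It lay inside the range of the 35 °C birds in ENSTGUG00000004795, and above only T139 and T157 of them in ENSTGUG00000009534. In ENSTGUG00000014693 it lay above all of them but T139, at 48.7 CPM. In ENSTGUG00000013293 it lay below all of them, at 12.4 CPM. Among the birds at 35 °C the averages ran from 53.5% for T154 to 70.7% for T146. Without T136 the fit across all genes gave 1407 genes at an unadjusted p under 0.05, the most for any bird left out (866 to 1407), and 0 with an adjusted p under 0.05. Leaving out a bird of low agreement favours a higher count, so this is not a separate observation. Without the 3 birds with an unusual share of paired-end counts (T156, T154 and T157), the held-out agreement averaged 67.1% over 36 pairs. It exceeded 50% in 33 of them, and averaged 56.4% over all genes. This held-out setting was added after the data were seen. T156 and T154 were birds of low agreement, so leaving them out favours a higher average. The fit without the 3 birds gave 540 higher and 826 lower genes, 1366 in all, under the same unadjusted limit. The part of the paired-end shares in these values was not tested.

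**Figure D4:**
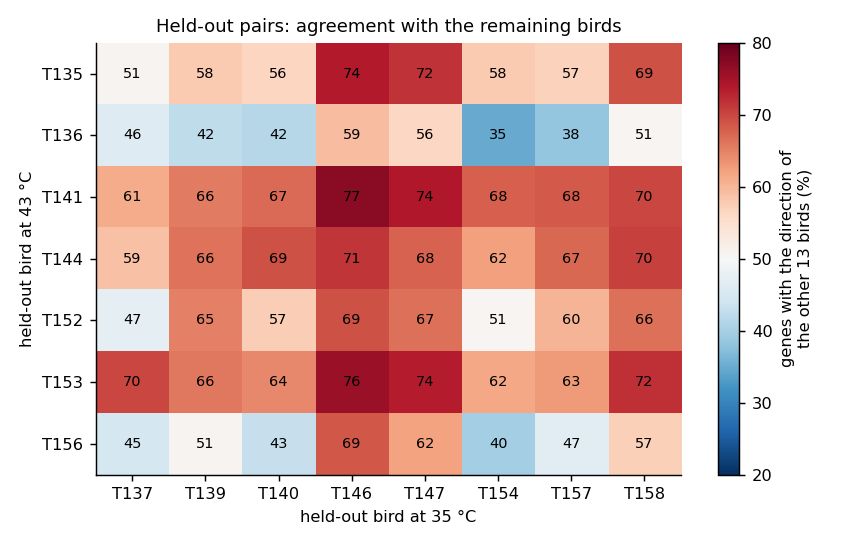
Percent of genes (colour and number in each cell) whose difference within a held-out pair had the direction found in the other 13 birds, with the heated bird of the pair on the y axis and the bird at 35 °C on the x axis. Red cells exceed 50% and blue cells lie below it, and the blue cells lie in the rows of T136, T156 and T152.

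Whole-library values did not separate the groups. Genes at least 4-fold higher in testis than in telencephalon, and of at least 1 CPM there, were taken from the birds at 27 °C, which gave 2604 testis-enriched genes, and the same rule with the tissues exchanged gave 2654 telencephalon-enriched genes. Testis-enriched genes held 38.2 to 43.7% of the counts of a bird at 43 °C (mean 41.3 ± 2.02%, SD, n = 7) and 39.3 to 42.3% at 35 °C (mean 41.3 ± 1.09%, SD, n = 8), with an exact two-sided permutation p of 0.969 (adjusted p = 0.969). The difference of means was 0.03 percentage points, and its sign was not stable, with -0.37 to 0.56 when 1 bird was left out and -0.09 when the set was defined at 10-fold. Telencephalon-enriched genes held 4.42 to 6.33% (mean 5.10 ± 0.661%, SD, n = 7) at 43 °C and 4.07 to 5.18% (mean 4.77 ± 0.372%, SD, n = 8) at 35 °C, with an exact two-sided permutation p of 0.267 (adjusted p = 0.608). The difference of means was 0.33 percentage points, and 0.01 when the set was defined at 10-fold. T144 had the highest share of telencephalon-enriched genes and the lowest share of testis-enriched genes. The distance between a bird and the mean of its group mates, as a root mean square over genes, was 0.475 to 0.557 log2 units at 43 °C (median 0.533) and 0.428 to 0.576 at 35 °C (median 0.495). A two-sided permutation test of these distances gave p = 0.365 (adjusted p = 0.608). Each distance depends on the group mates and was not recomputed for each split, so this p is approximate. Total counts gave an exact permutation p of 0.838 (adjusted p = 0.969).

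**Figure D5:**
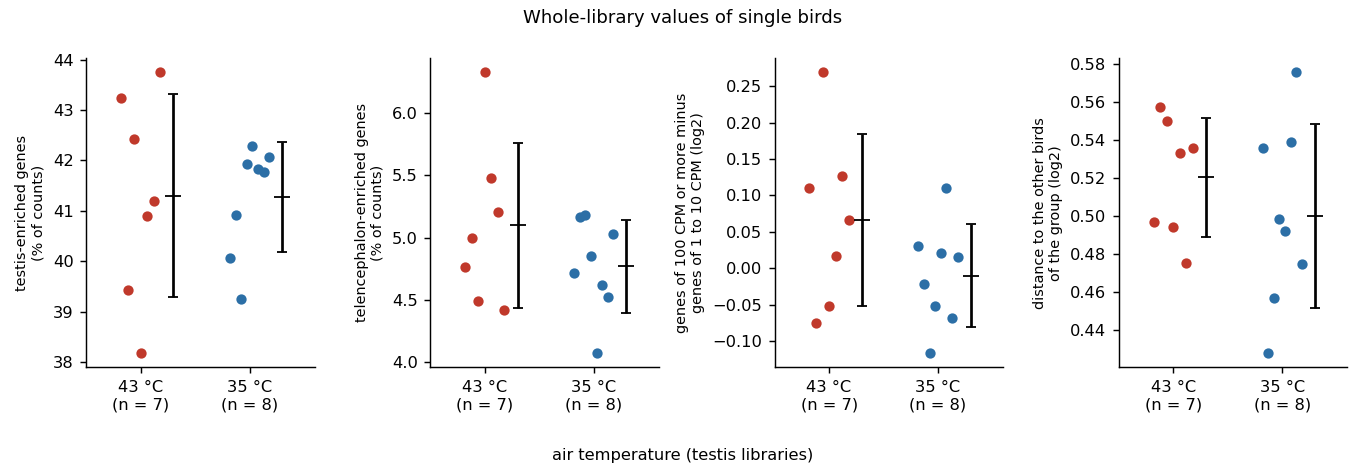
Values of single birds (points) at 43 °C (red, n = 7) and 35 °C (blue, n = 8), with mean and SD in black. They are the share of counts in testis-enriched and in telencephalon-enriched genes (%), the deviation of genes of 100 CPM or more minus that of genes of 1 to 10 CPM (log2), and the distance to the other birds of the group (log2), and the groups overlap in each.

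Direction within these gene sets is given as counts, with no test of a difference between sets. Over all genes tested, 7.94% had an unadjusted p under 0.05, with 3.74% higher at 43 °C and 4.2% lower. Of 2596 testis-enriched genes tested, 212 (8.17%) did, of which 130 (5.01% of the set) were higher and 82 (3.16%) lower. Of 2055 telencephalon-enriched genes, 171 (8.32%) did, with 56 (2.73%) higher and 115 (5.60%) lower. The shares of 8.17% and 8.32% were close to that over all genes. The sets also differed in level in the testis, with medians of 33.7 and 3.89 CPM. Taken at 10 to 100 CPM alone and under the same limit on p, 64 of 997 testis-enriched genes were higher and 32 lower. Of 521 telencephalon-enriched genes, 20 were higher and 20 lower. The remaining genes of that level had 177 higher and 168 lower of 4666. Without a limit on p the order of the sets was another one. At that level 51.6% of testis-enriched, 57.4% of telencephalon-enriched and 55.6% of the remaining genes were higher at 43 °C.

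The same genes were then followed in the telencephalon, sampled in the same 8 birds at 35 °C and in 8 birds at 43 °C, of which T138 has no testis library here. Of the 529 genes that were higher in the heated testis, 480 were tested in the telencephalon, and 238 of those (49.6%) were higher there at 43 than at 35 °C, close to the 48.9% of all 12523 genes tested in both tissues. Of the lower genes tested there, 299 (56.8%) were higher, the opposite direction. The median telencephalon log2 fold changes were -0.002 and 0.03. An interaction term over all 46 libraries tested whether testis and telencephalon responded differently. In edgeR 0 genes (0%) had an adjusted p under 0.05 and 1249 (9.97%) an unadjusted p under 0.05. With the bird as a block, which pairs the tissues, the counts were 0 and 1239.

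For the 4 genes given by identifier, the telencephalon log2 fold changes at 43 against 35 °C were 0.22 ± 0.13 (SE) for ENSTGUG00000014693 and 0.18 ± 0.07 (SE) for ENSTGUG00000004795, the direction of the testis. They were -0.09 ± 0.06 (SE) for ENSTGUG00000009534 and 0.09 ± 0.10 (SE) for ENSTGUG00000013293. The edgeR adjusted p in that tissue was 0.632, 0.453, 0.701 and 0.818. For ENSTGUG00000013293 the testis response minus the telencephalon response was -0.93 ± 0.22 (SE) in log2, with adjusted p = 0.145 in edgeR and 0.331 once the bird was a block. For the other 3 genes the adjusted p of the tissue difference was 0.239 to 0.511. These genes were selected by their testis change, which inflates the differences.

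The comparison of 27 with 35 °C uses the same birds at 35 °C, so genes selected at 43 against 35 °C lean the same way in it without any effect of cooling, and nothing is read from the lean. In it, the 529 genes that were higher at 43 °C had a median log2 difference of 0.16, beside 0.35 at 43 against 35 °C. The 594 lower genes had -0.23, beside -0.55.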

How the data were processed

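The authors deposited raw counts per gene for each tissue. The deposited testis values, 2 columns per bird per the file headers, were all whole numbers and were treated as raw rather than estimated counts, so rounding changed none. The deposited counts carry no normalization. Per the submitters' processing notes, featureCounts 1.6.4, HISAT2 2.1.0, Trimmomatic 0.36 and CASAVA were used. The sources used here do not give settings, strand setting, genome build or annotation, so a gene may hold reads of one that overlaps it, lies antisense to it or is nearly identical. Whether the paired-end and single-end columns are runs of 1 library is not stated. They were summed per bird, and all columns were used (0 left out). The testis library of T142 at 27 °C, labelled brain in 1 field, was kept.

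Genes were filtered with filterByExpr (minimum count 10, minimum total 15), scaled by TMM and fitted with edgeR 4.0.16 under R 4.3.3, in a robust quasi-likelihood fit of all 22 testis libraries. SEs came from the F statistic. Log2 CPM used a prior count of 2, and the per-bird deviations a pseudocount of 0.5 CPM. Alternatives used DESeq2 1.42.0, limma 3.58.1 and sva 3.50.0, and permutation tests SciPy 1.17.1. The genes given by identifier are the 2 with the smallest p in each direction at a mean of at least 1 CPM. The groups of genes, tests and this rule were chosen with earlier results of these data known.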

Additional observations from a re-analysis of the deposited data

Results flagged for a closer look

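In 26 groups of per-bird values, 3 birds stood apart from the rest of their group, where chance flags about 1 in 20 groups, or 1.3. ENSTGUG00000013293 was at 18.2 CPM in bird T144 at 43 °C, against 9.30 to 12.8 CPM in the other 6. ENSTGUG00000014693 was at 55.97 CPM in bird T139 at 35 °C, against 24.4 to 39.0 CPM in the other 7. The paired-end column held 61.3% of the counts of T156 at 43 °C, against 41.0 to 41.5% in the other 6.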

How the results depend on the processing

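The count of 0 genes with an adjusted p under 0.05 held in all 29 alternatives tried. The smallest adjusted p, 0.560 in the fit reported, depended on the setting. It ran from 0.073 in edgeR without T139 to 0.946 in edgeR with 2 surrogate variables, and was 0.111 in DESeq2. The count of 1123 genes at an unadjusted p under 0.05 stayed within 1.5 times that value in 28 of the 29 alternatives, at 866 to 1407 without 1 bird. With 2 surrogate variables it was 719 (5.08%), and with 1 and 3 it was 1171 and 813. The share of higher genes among them was 47.1% in the fit reported and 42.4 to 51.6% without 1 bird. It was 47.4% with 1 surrogate variable, 56.9% with 2 and 56.3% with 3. The majority thus turned from lower to higher with 2 or 3 surrogate variables and without some single birds, and the cause was not tested. Of the 1123 genes, 391 remained under that limit with 2 surrogate variables, and 749 to 945 without 1 bird, when none changed sign. The count of 10 genes whose birds did not overlap was 4 with a minimum count of 100, which tests fewer genes, and 85 without T154, T156 and T157. It was 13 to 43 without 1 bird and highest without T136. Fewer birds separate more easily by construction, and the count moved by over 1.5 times in 11 of those 15 cases, all but T141, T153, T146 and T158. The 4 genes given by identifier kept their direction in every alternative. Like the 1123, they were selected by p in mostly the same birds, so a kept sign adds no support. Without 1 bird their log2 fold changes were 0.55 to 0.74, 0.59 to 0.73, -0.54 to -0.44 and -0.95 to -0.65, in the order given. The held-out agreement was 59.8 to 61.1% with other genes scored, either column alone or another filter. Its value without 3 birds was computed after the data were seen. The per-bird values passed the threshold in no alternative. Their differences without 1 bird were -0.38 to 1.22 M for total counts, -0.37 to 0.56 and 0.12 to 0.44 percentage points for testis-enriched and telencephalon-enriched genes, and 0.04 to 0.10 and 0.003 to 0.04 log2 units for the level contrast and the distance. With the replicate block, which pairs the tissues of a bird, the tissue difference gave 1239 genes at an unadjusted p under 0.05 in place of 1249. No paired analysis was possible within the testis because no bird was measured at more than 1 temperature.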
